A study of Mus musculus with 15 samples.

Results

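The 4 Hox gene clusters of the mouse, HoxA, HoxB, HoxC and HoxD, were described here by every peak of 12 deposited chromatin peak lists of the intestinal epithelium that overlapped 1 of 4 windows of genome build mm9. The windows were chr6:52100000-52220000 (HoxA), chr11:96050000-96235000 (HoxB), chr15:102745000-102875000 (HoxC) and chr2:74485000-74610000 (HoxD), which together span 560.004 kb. They held 677 of the 778471 peaks in the 12 lists, with 233 in HoxA, 229 in HoxB, 99 in HoxC and 116 in HoxD. The windows were set by position and not by any measured value, but were chosen with earlier results of these data known. By gene order they hold 38 named Hox genes, 10 in HoxA, 10 in HoxB, 9 in HoxC and 9 in HoxD.

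H3K4me2, a mark of promoters and enhancers whether active or not, was mapped in 7 libraries by chromatin immunoprecipitation and sequencing. All samples came from mice of strain C57BL/6. Intestinal stem cells (ISC, 1 library) were sorted for GFP from Lgr5-eGFP-Cre mice. Secretory progenitors (Sec-Pro, 2 libraries) were crypt cells after Rbpj deletion (Sec-Pro 1) or after dibenzazepine, DBZ, which blocks Notch signalling (Sec-Pro 2), and no sort is stated for them. Enterocyte progenitors (Ent-Pro, 2 libraries) and enterocytes (ENT, 1 library) were crypt and villus cells of Atoh1-/- mice, and goblet cells (GOB, 1 library) were villus cells of Rbpj-/- mice. H3K27ac, which marks promoters and enhancers in use, and DNase I hypersensitive sites (DHS), where chromatin is open, were each mapped in 1 Sec-Pro and 1 Ent-Pro library, and ATOH1 in 1 Sec-Pro library with a FLAG antibody. The sources used here leave out whether H3K27ac, DHS and ATOH1 were mapped after Rbpj deletion or DBZ, which promoter drove a Cre, how long after deletion cells were taken, or whether libraries came from separate animals. A difference between lineages and one between genotypes or treatments cannot be told apart. Cell type labels were not checked against defining markers, because the available gene table is of build GRCm38.p6.

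Hox genes encode homeodomain transcription factors that give cells their position along the body axis. Each cluster is a compact row of genes whose order matches the order of their expression domains from head to tail, from the low paralogue groups at one end to group 13 at the other. Silent stretches of the clusters are bound by Polycomb group proteins, and the same promoters can carry methylation of H3K4. Cells of the adult gut keep a Hox pattern that depends on their position along the tract. ATOH1, which commits crypt cells to the secretory lineage, binds E-box motifs (CANNTG).

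Promoter sequences are shown for paralogue groups 13 and 9 of HoxA and HoxD. Group 13 closes the end of each cluster, and HoxA and HoxD are the clusters in which RefSeq (GRCm38.p6) supplied a promoter for nearly all named genes, 9 of 10 and 9 of 9. The 250 bases before the annotated start are given 5′ to 3′ on the gene's strand, with CG dinucleotides in capitals. In GRCm38.p6, the stretches are chr6:52260881-52261130 (minus strand) for Hoxa13, chr2:74667975-74668224 (plus strand) for Hoxd13, chr6:52227371-52227620 (minus strand) for Hoxa9 and chr2:74697513-74697762 (plus strand) for Hoxd9.
Hoxa13: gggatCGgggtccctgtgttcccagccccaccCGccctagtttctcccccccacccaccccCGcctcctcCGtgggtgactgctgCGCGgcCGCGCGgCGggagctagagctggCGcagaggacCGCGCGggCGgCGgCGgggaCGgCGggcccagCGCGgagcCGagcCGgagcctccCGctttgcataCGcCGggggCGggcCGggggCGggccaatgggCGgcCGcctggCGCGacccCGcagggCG
Hoxd13: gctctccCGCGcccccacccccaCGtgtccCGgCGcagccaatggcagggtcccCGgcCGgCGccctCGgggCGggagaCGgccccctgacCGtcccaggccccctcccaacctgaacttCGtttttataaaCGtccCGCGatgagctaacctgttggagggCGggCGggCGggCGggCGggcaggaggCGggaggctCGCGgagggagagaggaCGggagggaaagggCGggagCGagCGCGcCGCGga
Hoxa9: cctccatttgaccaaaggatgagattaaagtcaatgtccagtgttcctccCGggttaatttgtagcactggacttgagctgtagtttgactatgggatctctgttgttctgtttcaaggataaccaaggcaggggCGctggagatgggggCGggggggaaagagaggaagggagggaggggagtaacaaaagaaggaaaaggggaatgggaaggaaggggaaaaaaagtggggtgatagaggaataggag
Hoxd9: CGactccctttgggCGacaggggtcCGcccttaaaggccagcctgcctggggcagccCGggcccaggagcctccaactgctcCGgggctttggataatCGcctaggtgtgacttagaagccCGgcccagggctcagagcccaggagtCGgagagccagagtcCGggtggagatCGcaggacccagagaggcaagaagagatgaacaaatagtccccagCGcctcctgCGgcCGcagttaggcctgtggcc
The group 13 promoters were dense in CG, with 35 in Hoxa13 and 31 in Hoxd13, against 3 in Hoxa9 and 13 in Hoxd9. Hoxa9 had the fewest in HoxA. Other HoxA and HoxD promoters ranged from 2 at a Hoxd11 start to 28 in Hoxa5, so CG density is not read as particular to group 13. Over whole promoters, with 50 bases after the start included, the median was 17.5 CG in the 10 promoters of HoxA and 20 in the 10 of HoxD, against 7 in all 32841 promoters of the table. CANNTG, which reads the same on either strand, stood in 6 of the 10 HoxA promoters and 9 of the 10 HoxD promoters, against 72.3% of all promoters. Only 22 of the 38 named genes had a promoter in the table, so the check is void for the 4 clusters as a set and for HoxB and HoxC. The peaks are on mm9 and were not placed on these promoters.

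Lists differed in length, from 63293 to 92279 peaks for H3K4me2, and the total of reads behind them is unknown. The shortest peak was 146 bp in the ISC, Sec-Pro 2, Ent-Pro 1, GOB and ENT lists of H3K4me2 and 200 bp in Sec-Pro 1 and Ent-Pro 2, a technical difference that crosses the lineages. Over the whole genome, H3K4me2 covered 1.26% in ISC and 2.15% to 2.83% in the other 6 lists. In the windows, the covered length of libraries with the same shortest peak was more alike across lineages than that of libraries of the same lineage. The Jaccard index (length covered by both lists over length covered by either) was 0.617 for Sec-Pro 2 with Ent-Pro 1 and 0.551 for Sec-Pro 1 with Ent-Pro 2. It was 0.354 for the 2 Sec-Pro libraries and 0.525 for the 2 Ent-Pro libraries. Over whole lists the order was the same, at 0.752 and 0.742 against 0.654 and 0.688, so it is not particular to the windows.

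**Figure D1:**
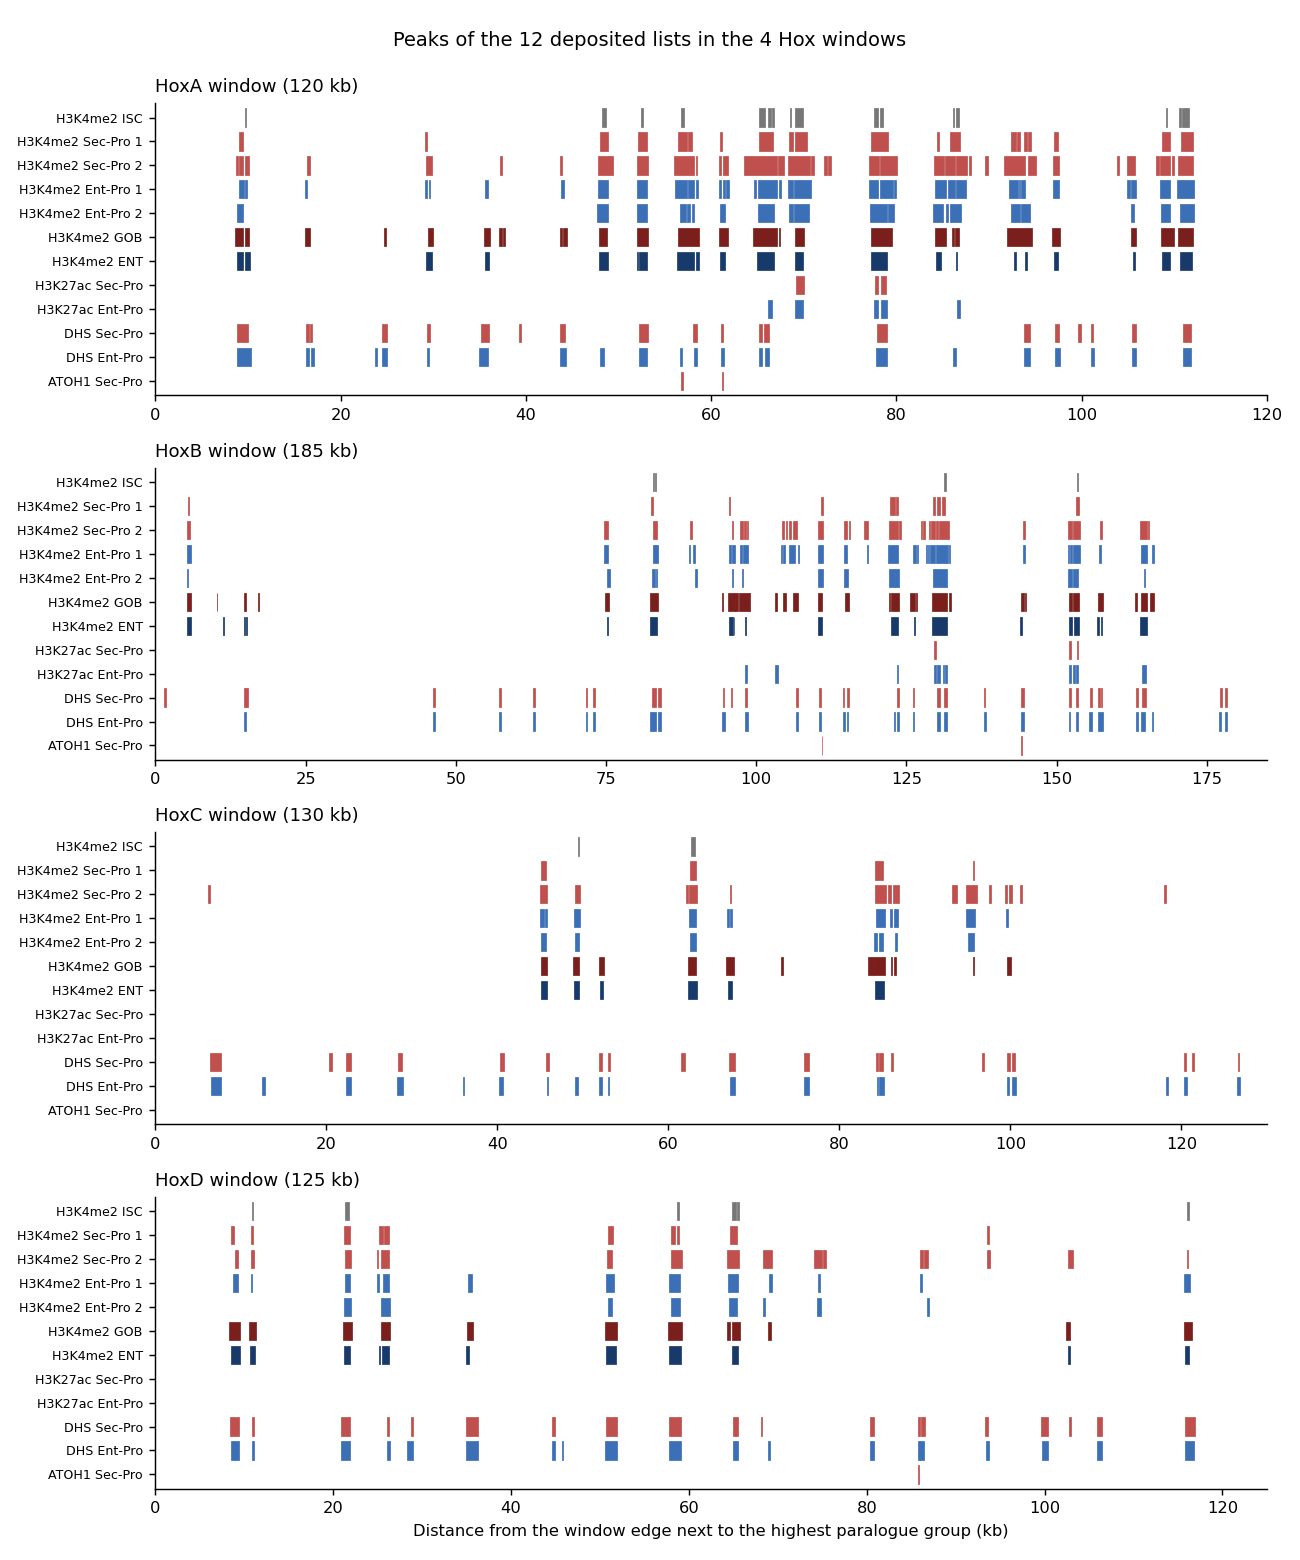
Peaks of the 12 lists in the 4 windows, 1 row per list, with the distance in kb from the window edge next to the highest paralogue group on the x axis. Red rows are Sec-Pro, blue rows Ent-Pro, dark red GOB, dark blue ENT and grey ISC, and H3K27ac has 3 and 5 peaks in HoxA, 3 and 11 in HoxB and none in HoxC or HoxD.

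HoxA carried the most H3K4me2 of the 4 clusters in 7 of 7 libraries. Peaks covered 4.67% of its window in ISC, 12.3% in Sec-Pro 1, 25.3% in Sec-Pro 2, 19.9% in Ent-Pro 1, 15.1% in Ent-Pro 2, 20.3% in GOB and 12.8% in ENT. These shares were 3.71 to 8.96 times the share of the whole genome. HoxD followed at 1.19%, 3.69%, 7.55%, 5.75%, 4.02%, 8.38% and 5.66% in the same order of libraries, and HoxB at 0.443%, 2.0%, 8.67%, 8.90%, 4.78%, 11.1% and 6.17%. HoxB and HoxD changed places between libraries, so no order between them is read. HoxC was the least covered cluster in 6 of 7 libraries, at 1.87% in Sec-Pro 1, 6.30% in Sec-Pro 2, 4.10% in Ent-Pro 1, 2.71% in Ent-Pro 2, 5.37% in GOB and 3.18% in ENT. In ISC it stood at 0.482%, just above HoxB. Over the 4 progenitor libraries the mean share was 18.2% ± 5.71 (SD, n = 4) in HoxA, 6.09% ± 3.32 in HoxB, 5.26% ± 1.78 in HoxD and 3.75% ± 1.93 in HoxC. The HoxA values, from 12.3%, lay above every value of the other 3 clusters, up to 8.90%, and the other 3 overlapped. With the upper 50% of each list by score, the mean was 2.40% in HoxB and 3.01% in HoxD.

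**Figure D2:**
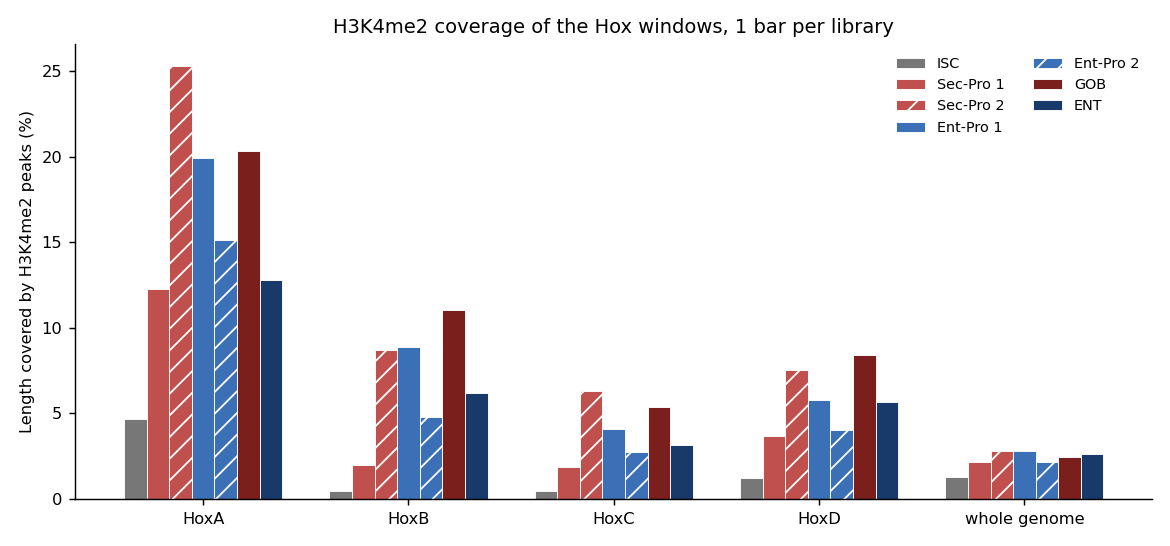
Share of each window and of the whole genome covered by H3K4me2 peaks (y axis, %), 1 bar per library. HoxA reaches 25.3% in Sec-Pro 2, and ISC has the lowest bar in every window.

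ISC had 30 peaks in the windows, the fewest of the H3K4me2 lists, and 18 of them lay in HoxA. The sum of covered length was 8.542 kb in ISC against 25.487 kb to 64.054 kb in the other lists. Whether the small ISC share reflects depth, the sort or the cells was not tested.

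The comparison of secretory with enterocyte progenitors asks whether the clusters are marked alike in the 2 lineages. Over the 4 windows, peaks covered 4.55% and 11.4% in the Sec-Pro libraries and 9.44% and 6.35% in the Ent-Pro libraries. Both Ent-Pro values lay between the Sec-Pro values. The means were 7.99% ± 4.87 (SD, n = 2) and 7.90% ± 2.18 (SD, n = 2), a difference of 0.0976 percentage points (exact permutation p = 1, two-sided). With 2 libraries a side, p cannot go below 0.333. Without Sec-Pro 2 the difference was -3.35 points, and without Sec-Pro 1 it was 3.54. Among the single clusters HoxB gave the smallest p, 0.667 by the same exact test (adjusted p = 1 over 5 values), and its groups overlapped as well. The 2 pairs of equal shortest peak went opposite ways, with Sec-Pro 2 covering 1.21 times the length of Ent-Pro 1 and Sec-Pro 1 covering 0.716 times that of Ent-Pro 2, against 1.01 and 0.988 over the whole genome. The DBZ library covered 2.51 times the length of the Rbpj library in the windows and 1.32 times over the genome. In HoxB the ratio was 4.34.

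Marked regions were counted by merging overlapping peaks of the 7 H3K4me2 lists, which gave 109 regions in the windows (31 in HoxA, 44 in HoxB, 17 in HoxC and 17 in HoxD) and 112288 in the genome. Of the 109, 16 were marked in all 7 lists, against 24.5% of all regions. HoxA held 9 of the 16, HoxB 3, HoxC 1 and HoxD 3. Only 1 region, in HoxD, was marked in 2 of 2 Sec-Pro and 0 of 2 Ent-Pro libraries (0.449% of all regions), and 0 regions the other way round (0.759%). In the 6 lists other than ISC, 27 were marked throughout (29.0% of all), and in the 4 progenitor libraries 28 (33.3%). The DBZ library alone marked 20 regions, or 18.3%, against 8.12% of all regions.

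The widest of the regions common to 7 lists was chr6:52132425-52136010 in HoxA, 3586 bp long. Next to it, chr6:52139910-52142967 held H3K4me2 in 7 of 7 lists, H3K27ac in both progenitors and DHS in both. In HoxB, chr11:96178975-96182011 had the same set of marks over 3037 bp. The single common region of HoxC, chr15:102807093-102808387, had no H3K27ac and no DHS in either progenitor. The HoxD regions chr2:74542644-74544179 and chr2:74549324-74550691 had DHS in both progenitors and H3K27ac in neither.

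Wide H3K4me2 peaks, as called in the lists, were scarce. A peak of at least 3 kb was found once in the 7 lists, at chr6:52152934-52156454 in Sec-Pro 2 (3521 bp, at percentile 84.6 of its list by score). Of all peaks in that list, 2.82% were as wide. The other lists had 0 such peaks here, against 0.168% in ISC, 3.15% in Sec-Pro 1, 3.58% in Ent-Pro 1, 2.91% in Ent-Pro 2, 3.13% in GOB and 3.07% in ENT over the genome. Counted instead with peaks within 1 kb merged, the windows had 18, and at a threshold of 2 kb they had 10. Shares of the whole lists at these settings were not counted. Scarcity is therefore read only for unmerged peaks of at least 3 kb.

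The marks were not spread evenly along the clusters. Distances are given from the window edge next to the highest paralogue group, and each window was divided into 10 equal bins. In HoxA, H3K4me2 covered a mean of 44.8% of the bin from 60 to 72 kb over the 4 progenitor libraries (30.0%, 63.6%, 48.5% and 37.1%). The 4 bins next to the group 13 edge were covered to between 1.1% and 5.92%. In HoxB, 3 bins from 18.5 to 74.0 kb and the last bin, 166.5 to 185.0 kb, held no H3K4me2 in any of the 7 lists. The most covered bin was 111.0 to 129.5 kb, at 15.4%. In HoxC, the bins from 13.0 to 39.0 kb and the bin from 104.0 to 117.0 kb held none in any of the 7 lists. The most covered bin was 78.0 to 91.0 kb, at 11.0%. HoxD had its most covered bins at 50.0 to 62.5 kb (13.7%) and 62.5 to 75.0 kb (14.1%), and none in any list between 37.5 and 50.0 kb.

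Open chromatin lay in part elsewhere in HoxA, HoxB and HoxC. In HoxA, the 50% of the window next to the group 13 edge held 52.1% of the DHS length in Sec-Pro and 55.6% in Ent-Pro, against 22.0% to 26.9% of the H3K4me2 length in the 4 progenitor libraries. In HoxB, the bin from 55.5 to 74.0 kb was covered by DHS to 6.55% in Sec-Pro and 6.80% in Ent-Pro and by H3K4me2 in no list. In HoxC, the bin at the group 13 edge was covered by DHS to 9.19% and 10.5%, and by H3K4me2 only in Sec-Pro 2, to 2.25%. In HoxD the courses overlapped, with 60.3% and 63.7% of the DHS length in the 50% next to the group 13 edge against 45.9% to 79.0% of the H3K4me2 length. The bin with the most DHS there, 50.0 to 62.5 kb (20.4% and 20.9%), was also one of the most covered by H3K4me2.

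**Figure D3:**
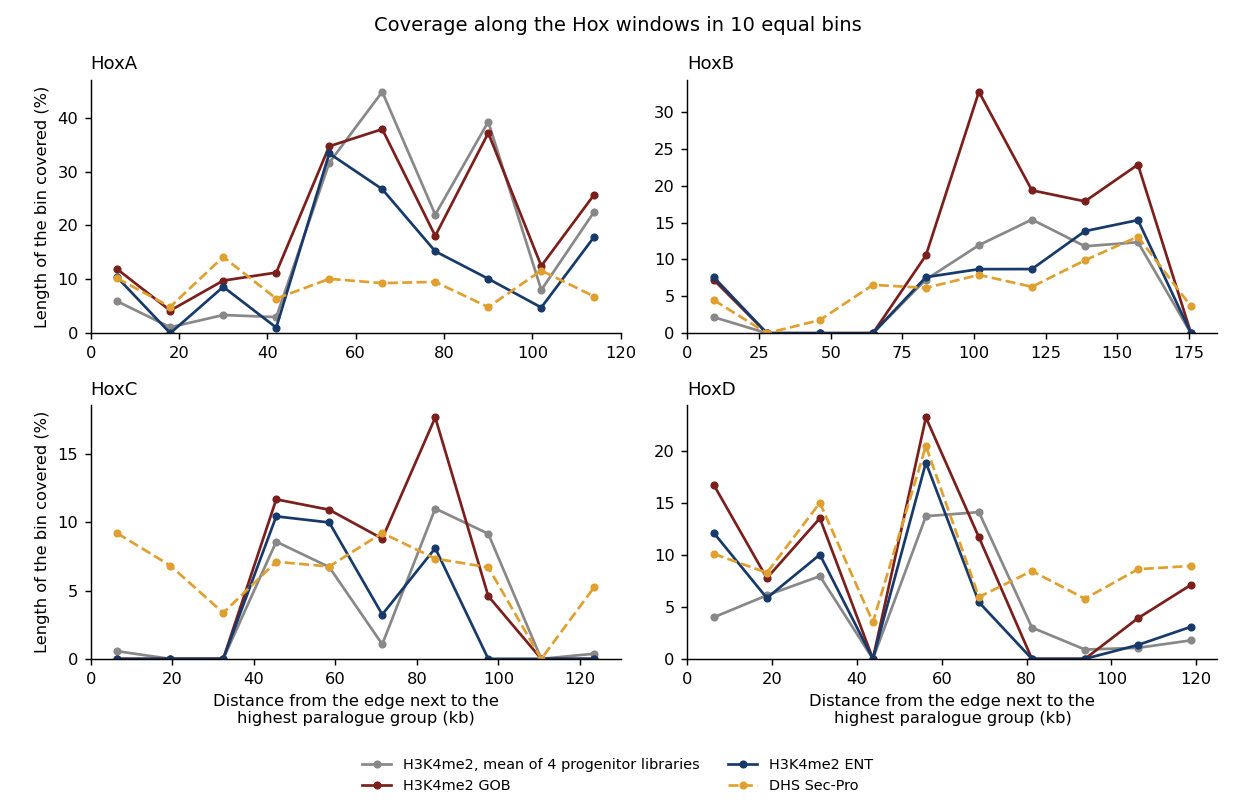
Share of each of 10 equal bins covered by peaks (y axis, %, with its own scale in each panel) against the distance from the edge next to the highest paralogue group (x axis, kb). Grey is the mean of the 4 progenitor H3K4me2 libraries, dark red GOB, dark blue ENT, and the dashed line Sec-Pro DHS. The dashed line is above 0 in some bins of HoxB and HoxC where H3K4me2 is at 0. Both are at 0 from 18.5 to 37.0 kb in HoxB and from 104.0 to 117.0 kb in HoxC.

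H3K27ac was absent from HoxC and HoxD and covered less of HoxA and HoxB than of the genome. In Sec-Pro 6 peaks lay in the windows, 3 in HoxA and 3 in HoxB, and in Ent-Pro 16, with 5 in HoxA and 11 in HoxB. HoxC and HoxD held 0 in either progenitor. The Sec-Pro peaks covered 1.51% of HoxA and 0.450% of HoxB, against 2.25% of the genome. Those of Ent-Pro covered 2.29% and 2.14%, against 2.41%. By covered length, H3K27ac therefore stood below the share of the genome in all 4 windows in either list. H3K4me2 of the 4 progenitor libraries stood above it in HoxA and HoxD. By number, Sec-Pro had 1.07 H3K27ac peaks per 100 kb in the windows against 2.81 over the genome. Ent-Pro had 2.86 against 2.59, with 4.17 in HoxA and 5.95 in HoxB, so its peaks there were not few but short. Each progenitor has 1 H3K27ac library, so these differences have no replicate check.

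The strongest H3K27ac lay in HoxA. In Ent-Pro, the peak chr6:52141939-52142425 had a score of 75.6, higher than 82.6% of its list, and in Sec-Pro the highest-scoring peak, chr6:52141155-52141697, stood at 19.0, or percentile 66.9. A second site common to the progenitors was chr6:52149977-52150889 in Sec-Pro and chr6:52150118-52150975 in Ent-Pro. The other sites of HoxA were marked in Ent-Pro alone, at chr6:52133175-52133454 and chr6:52153384-52153864. In HoxB the Ent-Pro peaks were weak, up to percentile 46.3, and 0 of the 11 lay in the upper 50% of the list.

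All 6 Sec-Pro peaks were also found in Ent-Pro (79.8% of that list were), and 6 of the 16 Ent-Pro peaks were found in Sec-Pro (77.4% of that list). H3K4me2 of the same progenitor overlapped 6 of 6 and 15 of 16 (72.5% and 77.8% of the lists). The exception was chr11:96153114-96153619 in HoxB, which had H3K4me2 in GOB alone among the 7 lists. H3K27ac covered 4.76 times more of HoxB in Ent-Pro than in Sec-Pro and 1.52 times more of HoxA, against 1.07 times over the genome. This was not tested, as there is 1 library a side.

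HoxC and HoxD sat in long stretches without H3K27ac. Between the nearest H3K27ac peaks on either side, the stretch over HoxC was 440.703 kb for Sec-Pro and 440.557 kb for Ent-Pro, and that over HoxD 228.053 kb and 228.142 kb. The median distance between neighbouring H3K27ac peaks was 1.23 kb in Sec-Pro and 2.51 kb in Ent-Pro. Stretches at least as long as that of HoxC numbered 1017 in Sec-Pro and 984 in Ent-Pro (1.37% and 1.43% of all), and as that of HoxD 1844 and 1803 (2.48% and 2.62%). Few stretches held as many peaks of the other marks. The HoxC stretch reached 192 kb beyond the window on one side and 118 kb on the other. It held 31 DHS of Sec-Pro and 33 of Ent-Pro, of which 20 and 19 lay in the window. Of 74463 such stretches in Sec-Pro, 2 held as many DHS (0.00269%), HoxC included, and of 68744 in Ent-Pro, 1, the HoxC stretch itself (0.00145%). H3K4me2 peaks in the HoxC stretch numbered 12 and 25 in the Sec-Pro libraries and 18 and 13 in the Ent-Pro libraries. Of these, 5, 16, 11 and 8 lay in the window. The HoxD stretch held 19 DHS in either progenitor, a number reached by 13 stretches in Sec-Pro and 12 in Ent-Pro (0.0175% of each). As many H3K4me2 peaks in both libraries as in the HoxC stretch were found in 2 stretches of either progenitor (0.00269% and 0.00291%), and as many as in the HoxD stretch in 12 and 6 (0.0161% and 0.00873%). These thresholds were taken from the clusters themselves, so the counts are descriptions. Most stretches are too short to hold so many peaks, so the small shares of all stretches were set largely by length. Counts among stretches of like length were not taken.

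Most H3K4me2 of the clusters therefore lay outside H3K27ac. The share of covered length without H3K27ac of the same progenitor was 91.9% and 96.2% in the Sec-Pro libraries (94.1% ± 3.02, SD, n = 2) and 88.9% and 84.5% in the Ent-Pro libraries (86.7% ± 3.12, SD, n = 2). Over whole lists it was 40.9% ± 6.96 and 32.0% ± 5.63. The values of all 4 libraries in the windows, from 84.5%, lay above those of all 4 whole lists, up to 45.8%. In HoxC and HoxD it was 100% in every library. In HoxA the means were 90.9% ± 4.47 and 86.7% ± 2.56, and in HoxB 94.7% ± 2.0 and 74.8% ± 8.77 (SD, n = 2 each, Sec-Pro first).

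Counted as peaks, 41 of 45 in Sec-Pro 1 had no H3K27ac overlap (91.1%, Wilson 95% interval 79.3 to 96.5), against 26.2% of that list. In Sec-Pro 2 it was 96 of 102 (42.2% of the list), in Ent-Pro 1 80 of 95 (33.5%) and in Ent-Pro 2 42 of 52 (21.0%). Peaks in the windows had lower scores than their lists, with medians at percentiles 34.4 to 46.8. The gap remained among the upper 50% of each list by score. There, 12 of 14, 34 of 40, 24 of 34 and 16 of 22 peaks had no H3K27ac, against 14.8%, 25.6%, 16.6% and 10.1%. The intervals cover counting error only.

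**Figure D4:**
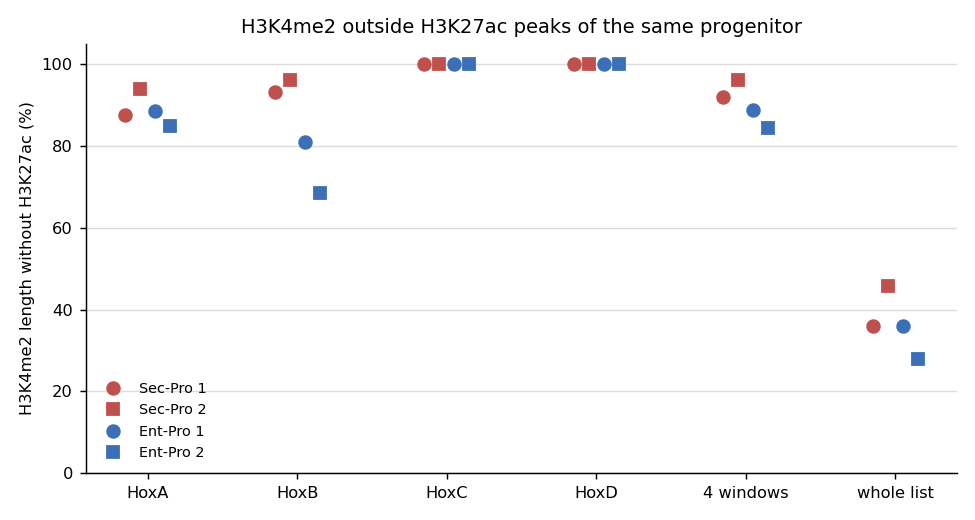
Share of the H3K4me2 covered length without an H3K27ac peak of the same progenitor (y axis, %) by cluster, over the 4 windows and over the whole list, with 1 point per library. Points of the windows together lie between 84.5% and 96.2%, and points of the whole lists between 28.0% and 45.8%.

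DHS were dense in all 4 clusters. Each progenitor had 92 DHS in the windows, which covered 7.41% in Sec-Pro and 7.77% in Ent-Pro, 13.1 and 11.8 times the share of the genome (0.565% and 0.658%). By cluster the shares were 8.78% and 10.1% in HoxA, 5.97% and 6.19% in HoxB, 6.18% and 6.14% in HoxC and 9.5% and 9.62% in HoxD, with Sec-Pro first. HoxC, the cluster with the least H3K4me2, thus had a DHS share close to that of HoxB.

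The progenitors shared most of these sites. Of the Sec-Pro DHS, 80 of 92 were found in Ent-Pro, and 85.4% of that list were. Of the Ent-Pro DHS, 79 of 92 were found in Sec-Pro, against 70.2% of that list. The Jaccard index of the covered length was 0.713 in the windows and 0.687 over the lists. It was highest in HoxD (0.814) and lowest in HoxC (0.593).

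Few of these open sites carried H3K27ac. In Sec-Pro 3 of 92 did (3.26%, Wilson 95% interval 1.12 to 9.15), against 44.0% of the list, and in Ent-Pro 9 of 92 (9.78%, interval 5.23 to 17.6), against 46.1%. H3K4me2 without H3K27ac overlapped 42 of 92 and 44 of 92, against 17.5% and 14.3% of the lists. Neither mark was found at 47 of 92 and 39 of 92, against 38.5% and 39.7%. No H3K4me2 or H3K27ac in any of the 9 histone lists met 34 of the Sec-Pro DHS and 30 of the Ent-Pro DHS, against 34.1% and 35.6%, so these shares stood near the background. The share without a mark of the same progenitor differed by cluster. It was 14 of 20 and 13 of 19 in HoxC and 6 of 21 and 4 of 23 in HoxA, Sec-Pro first. In HoxC, 13 of the 20 Sec-Pro DHS were without a peak in the 9 lists, and 4 of 21 in HoxA.

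**Figure D5:**
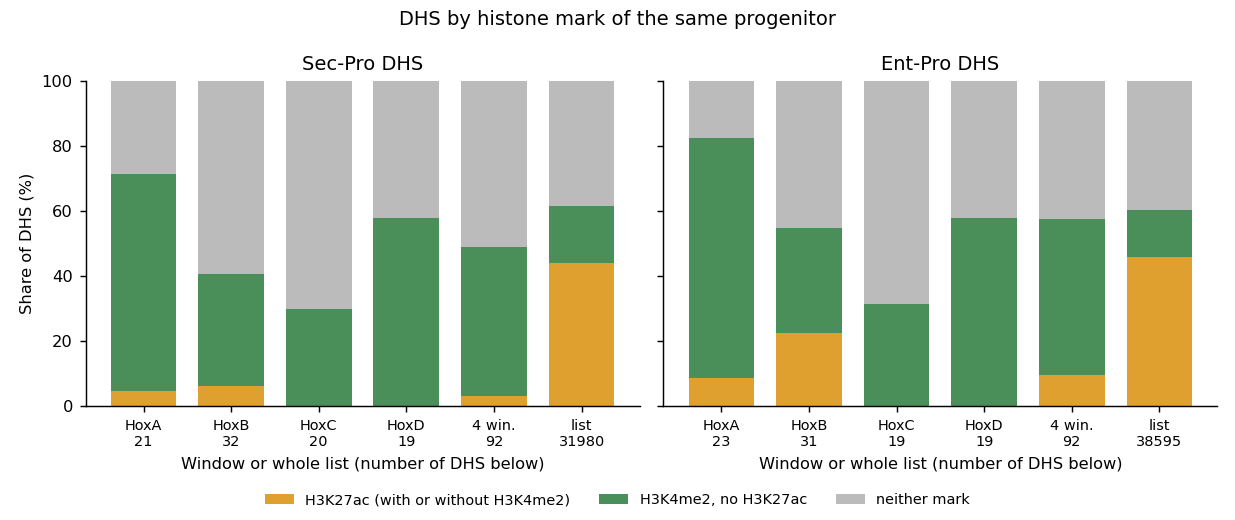
DHS of Sec-Pro (left) and Ent-Pro (right) by histone mark of the same progenitor, as a share of the DHS of each window, of the 4 windows and of the whole list (y axis, %), with the number of DHS under each bar. H3K27ac is found at 3.26% and 9.78% of the DHS in the windows and at 44.0% and 46.1% over the lists.

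The DHS with the highest score in HoxA was the same site in either progenitor, chr6:52141000-52142141 in Sec-Pro (score 142) and chr6:52141008-52142157 in Ent-Pro (157). It overlapped the strongest H3K27ac of the clusters and H3K4me2 in 7 of 7 lists. In HoxB the strongest site was chr11:96132675-96133375 in Sec-Pro (93.7) and chr11:96132693-96133377 in Ent-Pro (94.4), with H3K4me2 in 7 of 7 lists and no H3K27ac. In HoxC the Sec-Pro list peaked at chr15:102751435-102752629 (39.1), which had none of the 9 histone peaks and was also a DHS in Ent-Pro. The Ent-Pro list peaked there at chr15:102812173-102812760 (28.0), with H3K4me2 in 4 of 7 lists. In HoxD the highest scores were at chr2:74600752-74601866 in Sec-Pro (36.5) and chr2:74542733-74544053 in Ent-Pro (33.4), with H3K4me2 in 5 and 7 of 7 lists.

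DHS of 1 progenitor alone numbered 12 of 92 in Sec-Pro (14.6% of the list) and 13 of 92 in Ent-Pro (29.8%). The strongest were chr11:96145736-96146026 in Sec-Pro (score 19.9, percentile 49.2) and chr6:52171547-52171978 in Ent-Pro (24.4, percentile 59.6). The Ent-Pro site lay under H3K4me2 in 7 of 7 lists, Sec-Pro included. Among the upper 50% of each list by score, 1 of 29 Sec-Pro DHS was without a partner in the upper 50% of Ent-Pro. In the other direction it was 17 of 45 Ent-Pro DHS. The same shares were not taken over the upper 50% of the whole lists, so these counts are not read as particular to the clusters.

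ATOH1 had 5 peaks in the windows, 2 in HoxA, 2 in HoxB, 1 in HoxD and 0 in HoxC, or 0.893 per 100 kb against 0.573 over the genome. The strongest, chr6:52163017-52163225 in HoxA, had a score of 10.9, higher than 72.8% of the list. It lay under H3K4me2 in 7 of 7 lists and on a DHS of Ent-Pro, from Atoh1-/- crypts, but not of Sec-Pro. The remaining 4, chr6:52158749-52158879, chr11:96160870-96161000, chr11:96194065-96194210 and chr2:74570733-74570863, stood at percentile 27.4 or lower. Of the 5 peaks, 3 overlapped a Sec-Pro DHS (33.9% of the list did), 4 an Ent-Pro DHS (37.0%), 3 a Sec-Pro H3K4me2 peak (59.9%) and 0 a Sec-Pro H3K27ac peak (47.7%), while 4 lay under GOB H3K4me2 (62.8%). With 5 peaks, no share is read against the list.

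The goblet cell list covered more of the clusters than the enterocyte list did. GOB peaks covered 11.1% of the windows and ENT peaks 6.78%, a ratio of 1.64, against 0.928 over the whole genome. The ratio was 1.59 in HoxA, 1.79 in HoxB, 1.69 in HoxC and 1.48 in HoxD, above 1 in 4 of 4 clusters. With lists cut by score to equal covered length, an alternative chosen after the data were examined, the ratio was 1.94. Each cell type has 1 library, so the difference has no replicate check, and genotype (Rbpj-/- against Atoh1-/-) cannot be told apart from cell type.

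The excess was one-sided. Of 82 GOB peaks, 33 met no ENT peak (40.2%), against 24.8% of the GOB list. Of 60 ENT peaks, 2 met no GOB peak (3.33%, Wilson 95% interval of the shared part 88.6 to 99.1), against 29.2% of the ENT list. Of the 109 merged regions, 27 were marked in GOB and not ENT (16.3% of all regions) and 1 in ENT and not GOB (17.2%). HoxB held 14 of the 27, HoxA 6, HoxC 6 and HoxD 1. In percentage points, the bins that differed most were 84.0 to 96.0 kb in HoxA, covered to 37.2% in GOB and 10.1% in ENT, and then 92.5 to 111.0 kb in HoxB, at 32.7% and 8.68%.

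GOB-only peaks were mostly modest in score. The strongest were chr15:102828345-102829009 in HoxC (13.3, percentile 53.7), marked in GOB alone, chr11:96172036-96172210 in HoxB (12.3, percentile 51.4), marked in 3 progenitor libraries besides, and chr6:52203321-52203824 in HoxA (10.6, percentile 46.2). The ENT-only peaks were chr11:96061257-96061440 in HoxB and chr2:74510147-74510300 in HoxD, at percentiles 10.2 and 20.8 of their list.

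Against the progenitors, the villus libraries did not separate. Covered shares of the 4 windows were 11.1% and 6.78% in the villus and 4.55%, 11.4%, 9.44% and 6.35% in the crypt, so the groups overlapped. The means were 8.95% ± 3.07 (SD, n = 2) and 7.95% ± 3.08 (SD, n = 4), a difference of 1.01 percentage points (exact permutation p = 0.667, two-sided, with 0.133 the smallest possible). Without Sec-Pro 1 it was -0.126 points, and without Sec-Pro 2 2.17. HoxD gave the smallest p of the clusters, 0.4 by the same exact test (adjusted p = 0.933 over 5 values). These tests pooled the genotypes. Among libraries with Rbpj deletion, GOB stood at 11.1% of the 4 windows against 4.55% in Sec-Pro 1. Among Atoh1-/- libraries, ENT at 6.78% lay between the Ent-Pro values of 9.44% and 6.35%. The matched comparisons were not tested. Of the 109 regions, 33 were marked in the crypt and in neither villus list (23.9% of all regions), and 16 in the villus and in no crypt list (27.8%). The 16 comprised 13 regions of GOB alone (11.9% of all regions) and 2 of GOB and ENT (5.83%). The remaining one, of ENT alone, was 0.917% of the 109, while ENT alone marked 11263 of all 112288 regions. HoxB held 11 of the 16.

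Open sites of the progenitors met goblet cell H3K4me2 about as often as over the lists, and enterocyte H3K4me2 less often by value. GOB peaks overlapped 54 of the 92 Sec-Pro DHS (58.7%, against 62.7% of the list) and 58 of the 92 Ent-Pro DHS (63.0%, against 59.6%). ENT peaks overlapped 45 (48.9%, against 59.3%) and 47 (51.1%, against 57.0%). Sites without a mark in their own progenitor met both GOB and ENT peaks more often by value than over the lists. GOB and ENT peaks also covered 4.58 and 2.59 times their genome share in the windows. Of the 47 such DHS of Sec-Pro, 11 lay under a GOB peak (23.4%, Wilson 95% interval 13.6 to 37.2), against 8.92% over the list, and 7 under an ENT peak (14.9%, interval 7.41 to 27.7), against 3.47%. Of the 39 such DHS of Ent-Pro, 7 lay under a GOB peak (17.9%, interval 8.98 to 32.7), against 7.24% over the list. An ENT peak met 3 of the 39 (7.69%, interval 2.65 to 20.3), against 3.26% over the list. These intervals treat neighbouring sites of 1 library as independent, so they are not read as tests against the lists. HoxB held 7 of the 11 and 5 of the 7 sites under GOB peaks. In HoxC it was 1 of 14 (7.14%) and 1 of 13 (7.69%), near the lists, and in HoxD 1 of 8 and 0 of 8.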

How the data were processed

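The authors deposited 1 peak list per library for 12 of 15 samples, without pooling of replicates. The 3 inputs were not used here. The build was mm9 and the tools were MACS2, Bowtie 0.12.7 and CASAVA 1.7, per the submitters' processing notes, with parameters not given. Each deposited file gives peak positions and the authors' score, whose kind is not named in it, and the score was used only to rank peaks within a list. Depth is unknown.

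Peaks touching the windows by at least 1 bp were members, and covered length was clipped to the windows. Shares refer to the 2654.91 Mb of assembled mm9 chromosomes (GenomeInfoDb 1.38.1). Overlaps of at least 1 bp counted, and overlapping peaks of the 7 H3K4me2 lists were merged into regions. Covered shares were compared over libraries by exact permutation with Benjamini-Hochberg adjustment over 5 values. Shares of peaks have Wilson 95% intervals. Peaks are not replicates, so no test was made over them. Nothing says that replicates came from separate animals. Libraries within a group also differed, by Rbpj deletion or DBZ in Sec-Pro and by genotype and cell type in the villus group. In Sec-Pro and Ent-Pro they differed in shortest peak. The SDs and p-values therefore measure only a spread between libraries that includes these differences. Python 3.11.15, NumPy 2.4.6, SciPy 1.17.1 and matplotlib 3.10.9 were used, and the counting was tested on simulated data.

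The named peaks were, per window, the widest H3K4me2 peak of a library, the widest H3K27ac peak, the highest-scoring DHS, up to 3 DHS of 1 progenitor alone, every ATOH1 peak, and up to 2 peaks of GOB or ENT alone, from which the text gives examples. Merged regions common to 7 lists and the other H3K27ac peaks were named after their values were seen. The windows, members and rules were chosen with earlier results of these data known. RefSeq tables of GRCm38.p6 supplied gene order for 38 of 38 named genes and promoters for 22. No coordinates were converted between builds, so peaks were not assigned to genes, and the planned gene lists and cell type markers were not run. Alternatives were lists reduced to their upper 50% by score or to an equal number of peaks, peaks within 1 kb merged, windows shortened by 10 kb at each end, overlaps that cover 50% of a peak, and leaving out each progenitor library.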

Additional observations from a re-analysis of the deposited data

How the results depend on the processing

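No paired analysis was run. The labels of the Sec-Pro libraries carry no replicate numbers. Sec-Pro 1 and GOB shared Rbpj deletion, and Ent-Pro and ENT shared Atoh1-/-, but the tests did not use this match. The direction of the Sec-Pro minus Ent-Pro difference in H3K4me2 coverage (0.0976 percentage points) rested on single libraries. It ranged from -3.35 (without Sec-Pro 2) to 3.54 (without Sec-Pro 1) over the 4 windows, from -5.25 to 7.79 in HoxA, -4.84 to 1.83 in HoxB, -1.53 to 2.89 in HoxC and -1.20 to 2.67 in HoxD. With the libraries of a 200 bp shortest peak alone it was -1.80, and -2.87, -0.842 and -0.330 in HoxA, HoxC and HoxD. With lists of equal number of peaks it was -0.0646, and -0.00692 in HoxC. Counted in peaks it was 0. The villus minus progenitor difference (1.01 points) ranged from -0.126 (without Sec-Pro 1) to 2.17 (without Sec-Pro 2), from -3.57 to 0.779 in HoxA and from -0.100 to 1.38 in HoxC. With the 146 bp libraries alone it was -1.49, and -0.172 in HoxB and -0.929 in HoxC. Counted in peaks it was -2.5, and -1 in HoxC and -0.5 in HoxD. The cause of these turns was not tested.

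The upper 50% of each list by score holds fewer peaks, and most counts shrank with it. HoxB was then covered to 2.40% and HoxD to 3.01%, regions in all 7 H3K4me2 lists numbered 4, and H3K27ac in HoxB 1 peak for Sec-Pro and 0 for Ent-Pro. There were 29 DHS in Sec-Pro and 45 in Ent-Pro, with 28 shared in each direction, and 1 and 2 with H3K27ac. DHS of 1 progenitor alone were 1 in Sec-Pro and 17 in Ent-Pro, with no share of the whole lists at this setting beside them. ATOH1 kept 1 peak, and 0 with a Sec-Pro DHS. H3K4me2 without H3K27ac came to 90.3% in Sec-Pro and 82.9% in Ent-Pro, and the goblet and enterocyte Jaccard index to 0.533. H3K27ac of either progenitor gave 87.3% in Sec-Pro, and counting peaks 82.5% in Ent-Pro. Merging peaks within 1 kb left 6 H3K27ac peaks of Ent-Pro in HoxB and gave 18 wide H3K4me2 peaks, against 10 at a threshold of 2 kb and 0 at 5 kb. When overlaps had to cover 50% of a peak, 57.3% of GOB peaks met no ENT peak. Shortened windows gave a goblet and enterocyte Jaccard index of 0.550. Lists of equal covered length, added after the data were examined, gave a GOB over ENT ratio of 1.94. Of 207 alternatives over 44 results, 25 reversed the direction and 26 moved a value beyond its tolerance, such as the spread or 1.5 times a count. The remaining 156 did neither. The covered-length differences between groups had no tolerance and were judged by direction alone. The 156 therefore include large changes of size, such as 3.54 points without Sec-Pro 1 against 0.0976, and do not measure stability. Depth is unknown for all lists, so an absent peak does not show an absent mark.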
